A study of Mus musculus with 20 samples.

Results

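The glutamate and GABA receptor genes of the mouse were followed as 47 genes chosen by a rule on gene symbols alone: 26 subunits or receptors for glutamate (4 AMPA, 5 kainate, 7 NMDA, 2 delta and 8 metabotropic genes) and 21 for GABA (19 GABA-A and 2 GABA-B genes). All 47 symbols were found among 35975 genes, through 232 transcripts whose estimated counts were summed per gene. Of the 47, 41 had counts enough to be tested among 18555 genes in all, and 6, such as Gabra6, Gabrd and Grm7, did not. RNA came from WT and TKO cells of ES-E14TG2a, a mouse embryonic stem cell line, both on the same E14 background. The labels do not say what TKO stands for or how many clones it covers. D0 cells of each genotype were stem cells grown without feeders on gelatin in serum with the cytokine LIF. D2, D4, D6 and D8 cells had been moved to laminin and N2B27, a serum-free medium without LIF, to form neural progenitor cells (NPCs). Each of the 10 groups of genotype and day held 2 libraries, which the labels call biological replicates, so that 20 libraries entered the analysis and every group value below rests on n = 2.

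Glutamate is the main excitatory and GABA the main inhibitory transmitter of the brain. AMPA, kainate and NMDA receptors are cation channels opened by glutamate, and GABA-A receptors are chloride channels opened by GABA, each assembled from several subunits, while metabotropic glutamate (mGlu) and GABA-B receptors act through G proteins. In developing neural tissue GABA-A receptors are present early, and chloride export by the transporter KCC2 later makes their current inhibitory.

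Library totals ran from 26015282 to 38074768 estimated counts. Levels are CPM, counts per 1e+06 after TMM scaling, and fold changes are log2 values with their standard error (SE) from 1 edgeR quasi-likelihood fit of all 20 libraries, with p-values adjusted by Benjamini-Hochberg over the 18555 genes and a call at an adjusted p under 0.05. Transcripts of the DNA methyltransferase genes Dnmt1, Dnmt3a and Dnmt3b, measured because no targeted gene is named, were lower in TKO in 14 of 15 comparisons with WT of the same day, with log2 fold changes down to -3.64, and Dnmt3b at D8 was higher (0.92). Neuron markers, a list of 10 genes such as Tubb3, Dcx and Map2, summed to 4460 and 4550 CPM in the WT D8 libraries and to 1060 and 1070 CPM in TKO D8, and all 10 were lower in TKO. At D6 the order was the reverse, with 862 to 951 CPM in WT and 1320 to 1700 CPM in TKO. Neural progenitor markers summed to 2870 to 2950 CPM in WT D8 and 1230 to 1240 CPM in TKO D8, with 8 of 8 lower. Pluripotency markers summed to 49.4 to 74.0 CPM in WT D8 and 1110 to 1180 CPM in TKO D8, with 8 of 8 higher in TKO (median log2 fold change 4.86). Markers of trophoblast and epithelium summed to 200 to 202 CPM in WT D8 and 353 to 358 CPM in TKO D8, with 6 of 8 higher. Glial markers (56.0 to 66.6 against 43.9 to 57.9 CPM), endoderm markers (74.0 to 119 against 82.4 to 137 CPM) and mesoderm markers (84.5 to 84.8 against 58.7 to 59.8 CPM) moved in both directions, with 3 higher and 2 lower of 8 tested, 3 and 1 of 8, and 2 and 3 of 7. No marker of these 7 lists was at 0 in either group. In RNA from whole cultures, fewer cells of a type and less RNA per cell cannot be told apart.

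The sequence around the starts of a few members is shown for 2 features, a motif and the number of CpG dinucleotides, which is where DNA methylation is placed in mammals. RefSeq (GRCm38.p6) gave 300-base windows, 250 bases before to 50 after a start, for 32 of the 47 genes (39 windows). The first set holds a stretch within 2 mismatches, over its 13 fixed letters and on either strand, of the motif called RE1, which the repressor REST binds. Capitals mark that stretch. Gria2 is at chr3:80802786-80803085 on the minus strand, Grik2 at chr10:49788705-49789004 on the minus strand and Grin1 at chr2:25319138-25319437 on the minus strand.
Gria2: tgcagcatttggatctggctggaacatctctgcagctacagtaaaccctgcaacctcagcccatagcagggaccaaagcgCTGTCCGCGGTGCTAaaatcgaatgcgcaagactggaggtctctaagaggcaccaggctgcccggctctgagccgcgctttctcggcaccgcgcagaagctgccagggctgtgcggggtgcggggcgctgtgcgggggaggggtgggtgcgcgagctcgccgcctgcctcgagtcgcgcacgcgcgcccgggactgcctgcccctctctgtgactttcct
Grik2: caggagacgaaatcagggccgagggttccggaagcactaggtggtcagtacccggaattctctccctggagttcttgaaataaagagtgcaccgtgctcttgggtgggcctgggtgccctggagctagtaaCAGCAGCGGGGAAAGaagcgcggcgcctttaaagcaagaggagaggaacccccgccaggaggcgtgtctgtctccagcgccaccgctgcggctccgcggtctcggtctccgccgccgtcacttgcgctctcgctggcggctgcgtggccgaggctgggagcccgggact
Grin1: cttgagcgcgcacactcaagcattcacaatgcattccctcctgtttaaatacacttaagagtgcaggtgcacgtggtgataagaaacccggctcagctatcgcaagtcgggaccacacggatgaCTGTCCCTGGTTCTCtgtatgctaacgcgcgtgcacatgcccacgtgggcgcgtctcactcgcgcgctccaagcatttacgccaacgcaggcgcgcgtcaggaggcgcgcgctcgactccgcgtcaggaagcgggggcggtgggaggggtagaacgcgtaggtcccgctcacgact
Such a stretch was found in 4 of the 39 windows (10.3%), the remaining one being a second start of Gabrb1, and in 1.92% of all 32851 windows of this length. The Gria2 stretch has 1 mismatch and begins at -170 from the start, and those of Grik2 and Grin1 have 2 and begin at -119 and -126. These matches describe letters only. Rest itself is no member and was added after values were seen. In WT it fell from 434 to 468 CPM at D0 to 63.6 to 65.0 CPM at D8. In TKO it fell from 324 to 338 CPM at D0 to 71.9 to 82.3 CPM at D6. It then rose in TKO to 123 to 132 CPM at D8 (log2 fold change from D6 0.73, adjusted p = 2.4e-07). Against WT it was lower in TKO at D0 (log2 fold change -0.45, adjusted p = 5.89e-05) and D2 (-0.83, adjusted p = 8.24e-08), did not pass at D4 or D6, and was higher at D8 (0.99, SE 0.072, adjusted p = 1.2e-09). At D8, Gria2, Grik2 and Grin1 were lower in TKO, and Gabrb1 did not pass (log2 fold change 0.13). Grin1 was itself highest at D0, and Gria2 rose in WT between D6, when Rest was at 77.0 to 80.1 CPM, and D8. Whether Rest acts on any of these genes was not tested.

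The second set shows that range of CpG dinucleotides, marked in capitals. Grik3 (chr4:125490446-125490745, plus strand) has 50 CpGs and Grik5 (chr7:25072320-25072619, minus strand) has 10, the ends of the range among the members described library by library that have a window. Gabra3 (chrX:72656758-72657057, minus strand), chosen after its values were seen, has none.
Grik3: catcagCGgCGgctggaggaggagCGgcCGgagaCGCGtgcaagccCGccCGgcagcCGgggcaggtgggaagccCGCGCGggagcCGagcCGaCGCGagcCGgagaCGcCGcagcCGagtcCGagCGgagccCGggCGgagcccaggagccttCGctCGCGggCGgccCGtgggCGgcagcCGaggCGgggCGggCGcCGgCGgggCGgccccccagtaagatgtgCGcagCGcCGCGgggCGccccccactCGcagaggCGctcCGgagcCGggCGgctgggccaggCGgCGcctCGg
Grik5: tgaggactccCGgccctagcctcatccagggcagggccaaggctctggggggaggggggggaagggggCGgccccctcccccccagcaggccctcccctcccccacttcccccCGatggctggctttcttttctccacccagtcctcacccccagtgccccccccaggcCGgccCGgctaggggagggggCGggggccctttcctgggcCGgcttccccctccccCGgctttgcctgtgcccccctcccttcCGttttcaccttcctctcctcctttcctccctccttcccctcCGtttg
Gabra3: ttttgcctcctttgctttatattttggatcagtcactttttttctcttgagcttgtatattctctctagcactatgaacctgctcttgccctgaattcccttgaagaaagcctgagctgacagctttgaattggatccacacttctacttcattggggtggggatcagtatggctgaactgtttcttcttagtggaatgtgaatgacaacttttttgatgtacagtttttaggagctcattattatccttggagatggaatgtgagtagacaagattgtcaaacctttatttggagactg
By CPM at WT D8, Grik5, with 10 CpGs, ranked 2 among the 47 members, Grik3, with 50, ranked 3, and Gabra3 ranked 30. Gabbr1, which ranked 1, had 18 CpGs, and Gabbr2, with 46, had 3 and 5 counts in the WT D0 libraries. A link between the number of CpGs and the level was not tested. By the window with most CpGs per gene, the median was 14 for the members and 8 for all genes. The 7 members that were higher in TKO at D8 had a median of 9 CpGs (0 to 24), the 14 with a window that were lower had 22 (3 to 46), and the 7 that did not pass had 23 (3 to 50). The ranges overlap, and the difference was not tested.

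Receptor transcripts were most abundant in WT at D8, with the low point after D0 in the WT sums. The 26 glutamate receptor genes summed to 178 and 179 CPM in the WT D0 libraries and to 501 and 514 CPM in WT D8, against 146 and 160 CPM in TKO D0 and 199 and 201 CPM in TKO D8. The 21 GABA receptor genes summed to 117 and 133 CPM in WT D0, 253 and 257 CPM in WT D8, 104 and 114 CPM in TKO D0, and 110 and 111 CPM in TKO D8. Between these days the WT glutamate sums were 102 to 108 CPM at D2, 197 to 229 at D4 and 213 to 218 at D6, and those of TKO 99.6 to 104, 161 to 163 and 157 to 166. The WT GABA sums were 89.8 to 97.3 CPM at D2, 74.3 to 76.5 at D4 and 104 to 117 at D6, and those of TKO were above them, at 107 to 117, 86.2 to 94.6 and 122 to 130. At D8, in contrast, both WT libraries lay above both TKO libraries in both sums. A few abundant genes weigh heavily in these sums. Gabbr1 alone held most of the GABA sum in every WT library. Grik3, Grik5 and Grin1 together held most of the glutamate sum at WT D0. The sums therefore do not describe the typical member. Among the 47 genes, 13 reached 10 CPM in a group, 22 reached 1 CPM but not 10, and 12 stayed under 1 CPM, of which Gabra6 had no count in any library. The highest group was WT D8 for 28 members, TKO D8 for 6 and TKO D4 for 6. The same count over all genes is not given here, and for members under 1 CPM the highest group rests on few counts.

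**Figure D1:**
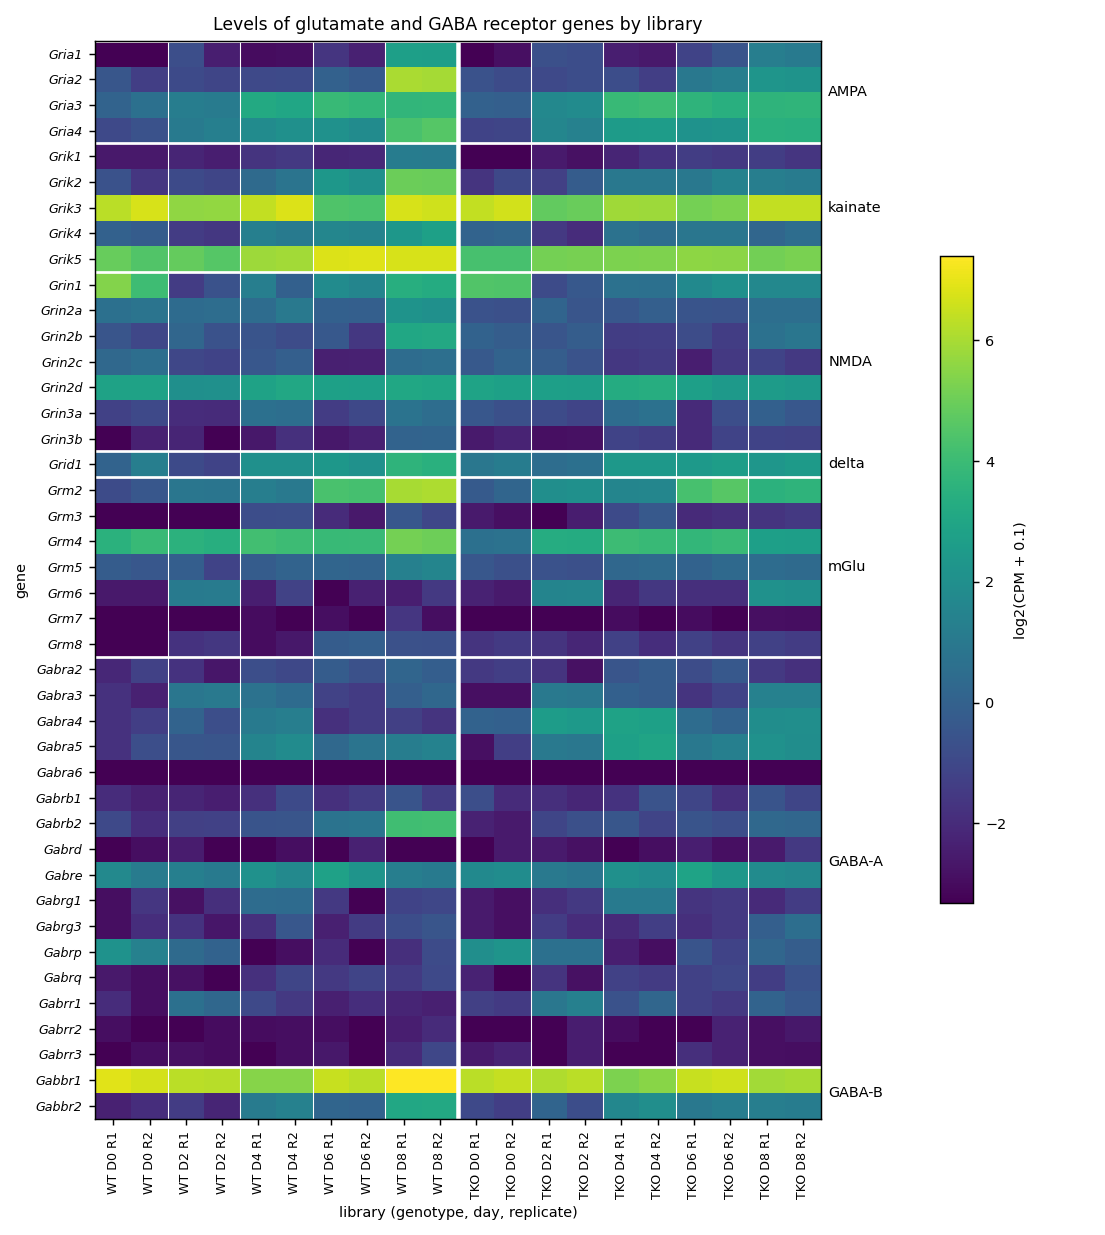
Rows are 42 of the 47 receptor genes by family, columns the 20 libraries, and color the level as log2(CPM + 0.1). WT D8 is the brightest pair of columns for most of them, while Grik3, Grik5 and Gabbr1 are bright in every library.

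In WT, 31 of 41 tested members rose from D0 to D8 and 2 fell, where 37.8% of all genes rose and 39% fell (median log2 fold change 2.70 over the members and 0.0035 over all genes). In TKO, 27 rose and 5 fell, against 34.2% and 30.8% of all genes (medians 1.89 and 0.05), and 3 fell without TKO D8 replicate 2. Of the last step, D6 to D8, 27 members rose and 1 fell in WT (26.6% and 30.4% of all genes), and 17 rose and 6 fell in TKO (25.5% and 24.5%). These 4 comparisons share libraries and are given side by side. In the difference between the genotypes from D0 to D8, tested as an interaction, 5 members were more positive and 20 more negative in TKO (29.3% and 22.9% of all genes). The 5 became 3 without WT D0 replicate 1 or without WT D0 replicate 2. From D6 to D8, 2 were more positive, Gabra3 and Gabra4, and 23 more negative (25.5% and 24.4%), and 1 remained more positive without WT D6 replicate 2 or either TKO D6 library.

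On the earlier days fewer members had risen. Against D0, WT members rose or fell in 10 and 8 cases at D2 (25.8% and 28.9% of all genes), 21 and 3 at D4 (33.1% and 31.8%), and 18 and 6 at D6 (35.2% and 35.9%). The TKO counts were 14 and 6 at D2 (26.6% and 26.9%), 22 and 7 at D4 (34.4% and 32.1%), and 18 and 5 at D6 (36.1% and 35.8%). At D4 in WT the risers included Gria3 (2.81), Gria4 (2.95), Gabra4 (3.14) and Gabra5 (3.20), given as log2 fold changes.

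TKO stood below WT at D8 in most receptor families. Of 41 members, 26 were lower and 7 higher in TKO, where 31.8% of all genes were lower and 35.8% higher, and the median log2 fold change was -1.18 over the members and 0.04 over all genes. Neuron markers were lower in the same libraries (10 of 10, median -1.86) and pluripotency markers higher, and their part in the receptor results was not tested. All 7 NMDA genes and both GABA-B genes were lower, as were 3 of 4 AMPA genes, 4 of 5 kainate genes and 3 of 6 tested mGlu genes. Of the NMDA genes, Grin2a, Grin2b, Grin3a and Grin3b lost their call with length-scaled TPM counts, with DESeq2 or with both. The GABA-A genes were divided, with 5 of 15 lower and 6 higher, which is near the shares of all genes (31.8% and 35.8%). Without WT D8 replicate 1, or without TKO D8 replicate 1, 4 of the 7 remained higher, and in both cases Gabra5, Gabre and Gabrp no longer passed. The count of lower members was between 24 and 28 when any of the 20 libraries was left out.

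**Figure D2:**
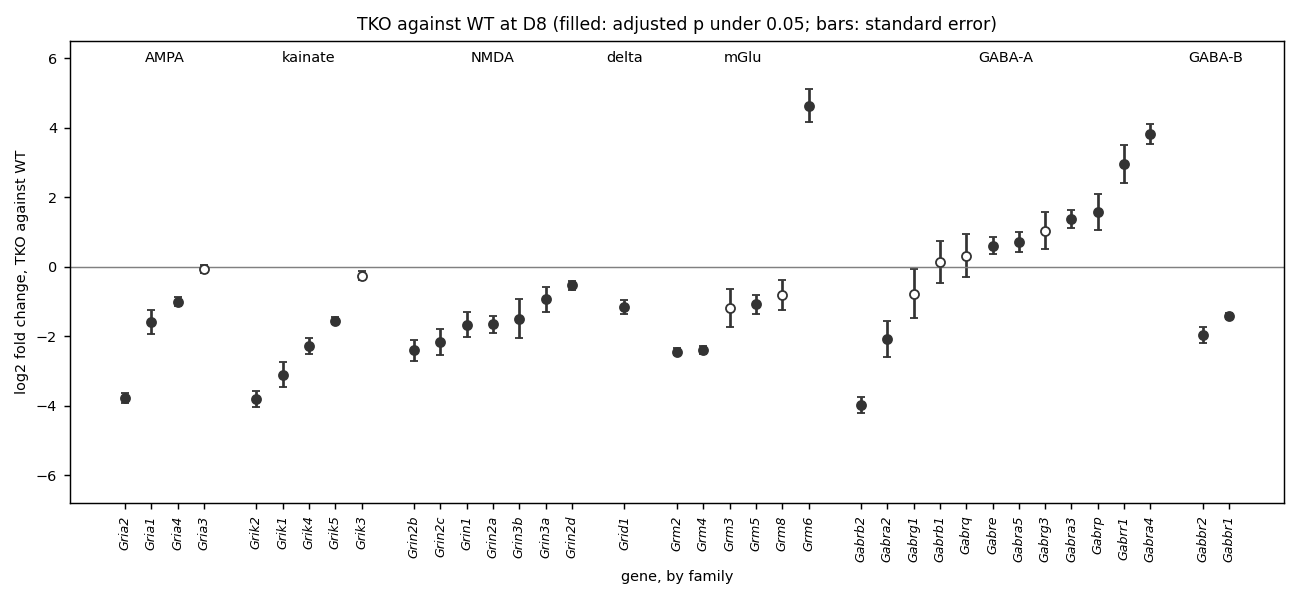
Log2 fold change of TKO against WT at D8 for 37 of the 41 tested genes (horizontal axis, by family), with bars of 1 SE and filled points for an adjusted p under 0.05. The glutamate receptor genes shown lie below 0 apart from Grm6, and the GABA-A genes shown run from Gabrb2 at -3.98 to Gabra4 at 3.82.

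AMPA receptors carry most fast excitation, and the genotypes differed at D8 in the proportions of the AMPA genes, all of which were detected in both. Gria2 encodes the subunit that keeps calcium out of the channel; it lies on chromosome 3 from 80681450 to 80802835 (GRCm38). In WT, Gria2 was at 0.638 and 0.292 CPM at D0, 0.426 and 0.378 at D2, 0.414 and 0.429 at D4, 0.909 and 0.728 at D6, and 64.7 and 61.4 at D8. In TKO it was at 0.557 and 0.439 CPM at D0, 0.411 and 0.481 at D2, 0.486 and 0.297 at D4, 1.83 and 2.32 at D6, and 4.72 and 4.41 at D8. The groups did not overlap at D6, where TKO was higher (log2 fold change 1.32, SE 0.23, adjusted p = 0.000185), or at D8, where TKO was lower (-3.79, SE 0.15, adjusted p = 6.17e-13). The last step thus differed between the genotypes, 6.26 in WT and 1.15 in TKO on the log2 scale (interaction -5.11, SE 0.27, adjusted p = 3.02e-10).

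Gria3 encodes another pore subunit and behaved otherwise. In WT, Gria3 was at 0.957 and 1.46 CPM at D0, 2.25 and 2.1 at D2, 9.09 and 7.91 at D4, 14.9 and 13.6 at D6, and 13 and 13.5 at D8. In TKO its levels were 0.906 and 0.842 CPM at D0, 3.09 and 3.45 at D2, 15 and 16.4 at D4, 12.5 and 10.8 at D6, and 12.5 and 12.8 at D8. It was higher in TKO at D2 (log2 fold change 0.59, SE 0.17) and D4 (0.88, SE 0.12), and at D8 the difference was -0.07 (SE 0.12, adjusted p = 0.622). The D2 call was lost with length-scaled TPM counts and without WT D2 replicate 2 or TKO D2 replicate 2.

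Gria4, a subunit of fast AMPA channels, was lower in TKO at D8, but less so than Gria2. In WT, Gria4 was at 0.415 and 0.552 CPM at D0, 2.05 and 2.36 at D2, 3.46 and 4.04 at D4, 4.18 and 3.51 at D6, and 20 and 23.5 at D8. TKO libraries held 0.348 and 0.366 CPM at D0, 2.91 and 2.53 at D2, 5.75 and 5.91 at D4, 4.26 and 4.6 at D6, and 11 and 10.6 at D8. TKO was higher at D4 (log2 fold change 0.64, SE 0.14) and lower at D8 (-1.01, SE 0.13, adjusted p = 1.34e-06), with no overlap on either day. Gria1, the subunit known for its role in synaptic plasticity, had no count in either WT D0 library and 6.51 and 6.41 CPM at WT D8, at least 134-fold above the floor of 0.0483 CPM that 3 counts over the group would give. In TKO at D8 it was lower, at 2.31 and 1.96 CPM, with a log2 fold change of -1.60 (SE 0.34, adjusted p = 0.000536).

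On TPM, a scale per transcript length, the 4 AMPA genes summed to 44.0 in WT D8 and 11.6 in TKO D8. Gria2 made up 59.3% ± 2.5 (SD, n = 2) of that sum in WT D8 and 13.2% ± 1.97 in TKO D8, while Gria3 made up 12.6% ± 0.644 and 42.1% ± 3.69, and Gria4 22.5% ± 1.81 and 39.4% ± 0.515. At WT D6, before the rise of Gria2, Gria3 held 72.6% ± 3.42 and Gria2 4.52% ± 0.255. Both WT D8 libraries had Gria2 as their leading AMPA gene, and neither TKO D8 library did. Estimated transcript shares also differed at D8, with no overlap between the genotypes' libraries: Gria3-201, a protein-coding transcript, held 62.7% of Gria3 counts in WT D8 and 34.5% in TKO D8, and Gria3-205, annotated as retaining an intron, held 16.7% and 43.8%.

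**Figure D3:**
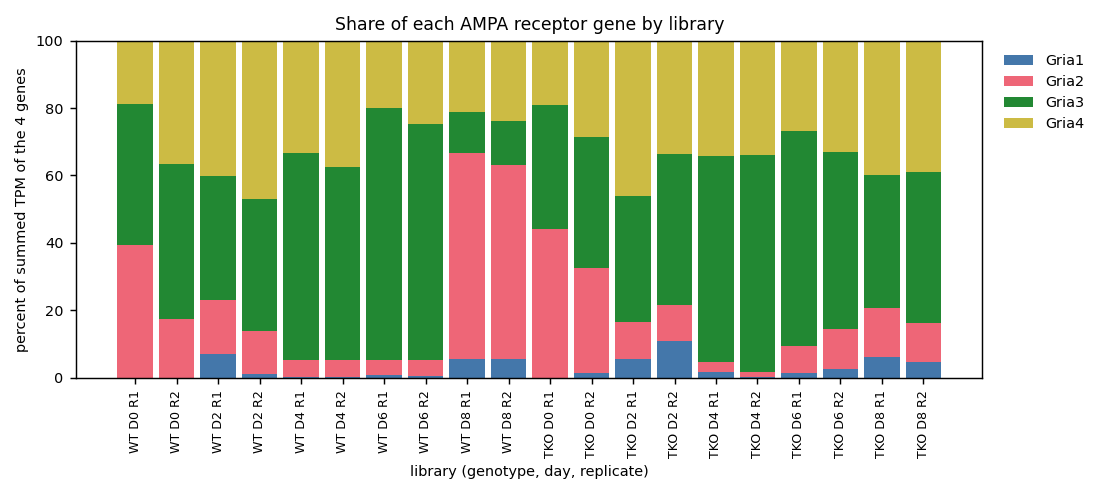
Stacked bars give the percent of the summed TPM of Gria1 to Gria4 that each gene held in each of the 20 libraries. Gria2 holds 59.3% on average in WT D8 and 13.2% in TKO D8; sums at D0 are under 1 TPM, so shares there rest on few reads.

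Kainate receptors are built from Grik1 to Grik3, which can form channels alone, and from Grik4 and Grik5, which need one of them as a partner. Grik2 had the lowest log2 fold change of the family at D8; it lies on chromosome 10 from 49094833 to 49788766. In WT, Grik2 was at 0.542 and 0.227 CPM at D0, 0.426 and 0.378 at D2, 1.21 and 1.62 at D4, 5 and 4.1 at D6, and 31.3 and 30.8 at D8. In TKO, Grik2 was at 0.209 and 0.403 CPM at D0, 0.309 and 0.762 at D2, 1.86 and 1.85 at D4, 1.88 and 2.63 at D6, and 2.31 and 2.11 at D8. The groups parted at D6, with a log2 fold change of -1.02 (SE 0.24, adjusted p = 0.0022), and at D8 (-3.81, SE 0.23, adjusted p = 9.8e-11), with both WT libraries above both TKO libraries. The D6 call was lost with length-scaled TPM counts.

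Grik5 was already expressed in stem cells. In WT, Grik5 was at 30.2 and 22.4 CPM at D0, 28.6 and 23.6 at D2, 56.2 and 60.4 at D4, 114 and 116 at D6, and 107 and 106 at D8. In TKO, Grik5 was at 19 and 19.5 CPM at D0, 35.1 and 36.9 at D2, 38.2 and 40.2 at D4, 47.5 and 46 at D6, and 34.7 and 37.4 at D8. TKO was lower at D0 (log2 fold change -0.45), higher at D2 (0.47) and lower at D4 (-0.57), D6 (-1.30, SE 0.10) and D8 (-1.56, SE 0.10, adjusted p = 2.84e-10), with no overlap on any day. The D0 call was lost with the 4 D0 libraries alone or without WT D0 replicate 1, and the D2 call without WT D2 replicate 2.

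Grik3, by contrast, was abundant at D0 and at D8 in both genotypes. In WT, Grik3 was at 78 and 106 CPM at D0, 48.5 and 50.2 at D2, 84.8 and 114 at D4, 21.6 and 20.7 at D6, and 108 and 98.1 at D8. In TKO, Grik3 was at 85.8 and 101 CPM at D0, 28.2 and 30.5 at D2, 57.8 and 56.1 at D4, 35.1 and 38.3 at D6, and 85.4 and 85.7 at D8. Its level went down and up more than once, with D6 the lowest day in WT and D2 in TKO. TKO was lower at D2 (log2 fold change -0.75) and D4 (-0.80) and higher at D6 (0.79), and at D8 the value was -0.27 (SE 0.13, adjusted p = 0.0689), a difference that passed with the D8 libraries alone, without the low-count filter, or without any 1 of the WT D0 or WT D4 libraries. Of the rest, Grik1 was at 2.19 and 2.1 CPM in WT D8 and 0.28 and 0.214 in TKO D8 (-3.10, SE 0.37), and Grik4 at 4.95 and 6.65 against 1.05 and 1.32 (-2.28, SE 0.22).

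NMDA receptors contain 2 copies of the obligate subunit from Grin1 together with glutamate-binding Grin2 or glycine-binding Grin3 subunits. Grin1, on chromosome 2 from 25291181 to 25319187, was highest in stem cells. In WT, Grin1 was at 42.8 and 16.7 CPM at D0, 0.271 and 0.553 at D2, 2.31 and 0.889 at D4, 3.48 and 2.81 at D6, and 10.5 and 9.46 at D8. In TKO, Grin1 was at 22.6 and 21.7 CPM at D0, 0.446 and 0.682 at D2, 1.52 and 1.45 at D4, 3.3 and 4 at D6, and 3.15 and 3.09 at D8. The WT D0 replicates were far apart and enclosed both TKO values, while at D8 both WT libraries were above both TKO libraries (log2 fold change -1.68, SE 0.36, adjusted p = 0.00047). From D0 to D2 it fell by 6.10 in WT and 5.31 in TKO on the log2 scale. Exons of Grin1os on the opposite strand cover 13.5% of Grin1 exon bases (Gm45441 covers 9.66% of Grin2d), and the strand setting of the counting is not given in the sources used here.

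Grin2d, the subunit typical of early brain stages, was the steadiest of the family. In WT, Grin2d was at 7.02 and 7.21 CPM at D0, 3.99 and 4.05 at D2, 7.08 and 8.61 at D4, 6.64 and 6.52 at D6, and 8.19 and 7.7 at D8. In TKO, Grin2d was at 7.38 and 6.63 CPM at D0, 6.51 and 6.33 at D2, 9.61 and 9.98 at D4, 6.49 and 5.23 at D6, and 5.73 and 5.21 at D8. It was higher in TKO at D2 (log2 fold change 0.68, SE 0.14) and lower at D8 (-0.54, SE 0.13, adjusted p = 0.0013). Grin2b, the main partner of Grin1 in young neurons, was at 8.33 and 8.78 CPM in WT D8 and 1.5 and 1.72 in TKO D8 (-2.41, SE 0.30, adjusted p = 1.25e-06). In TPM, however, Grin2b was at 0.695 and 0.735 in WT D8 and 0.635 and 0.784 in TKO D8. The groups overlapped on that scale, so the difference in Grin2b is uncertain. Grin2a (-1.66), Grin2c (-2.17), Grin3a (-0.94) and Grin3b (-1.50) were also lower at D8. Of these 5, length-scaled TPM counts lost Grin2a, Grin2b and Grin3b, and DESeq2 lost Grin3a and Grin3b. For Grin2a, 12.1% of the 31-mers of its transcripts also occur in transcripts of another gene, and 32.1% of Grin3b exon bases lie opposite exons of Tmem259, so both are uncertain.

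Grid1 encodes a delta receptor, which resembles ionotropic glutamate receptors and binds cerebellins, secreted proteins that bridge synapses. In WT, Grid1 was at 0.957 and 2.31 CPM at D0, 0.426 and 0.349 at D2, 4.03 and 4.11 at D4, 5.03 and 4.24 at D6, and 12.3 and 10.9 at D8. In TKO, Grid1 was at 1.78 and 2.16 CPM at D0, 1.34 and 1.44 at D2, 5.09 and 5.09 at D4, 5.33 and 6.11 at D6, and 4.82 and 5.57 at D8. The groups overlapped at D0, TKO was higher at D2 (log2 fold change 1.85, SE 0.38; not with length-scaled TPM counts) and lower at D8 (-1.16, SE 0.21, adjusted p = 9.38e-05).

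Among metabotropic receptors, Grm2 and Grm4, both of which lower cyclic AMP through inhibitory G proteins, were the most abundant. In WT, Grm2 was at 0.446 and 0.65 CPM at D0, 1.74 and 1.69 at D2, 2.31 and 1.93 at D4, 20.1 and 18.5 at D6, and 64.1 and 66.5 at D8. In TKO, Grm2 was at 0.731 and 1.02 CPM at D0, 3.77 and 4.01 at D2, 2.83 and 2.91 at D4, 19.3 and 24.3 at D6, and 11.7 and 12.3 at D8. The genotypes overlapped at D6 and then moved apart, up by 1.76 in WT and down by 0.86 in TKO (log2 fold change of TKO against WT at D8 -2.44, SE 0.11, adjusted p = 4.21e-12; interaction -2.62, SE 0.16). The values for Grm2, on chromosome 9 from 106643095 to 106656082, include any reads from the opposite-strand gene Gm28111, which covers 9.6% of its exon bases, if the counting ignored strand.

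Grm4 differed between the genotypes at both ends of the time course. In WT, Grm4 was at 11.3 and 14.6 CPM at D0, 11.8 and 10.3 at D2, 17.9 and 16.1 at D4, 14.8 and 15.4 at D6, and 35 and 32.5 at D8. In TKO, Grm4 was at 1.46 and 1.54 CPM at D0, 9.91 and 9.62 at D2, 16 and 15 at D4, 13.6 and 15.3 at D6, and 6.5 and 6.25 at D8. Both WT libraries were above both TKO libraries at D0 (log2 fold change -3.10, SE 0.15, adjusted p = 9.45e-11) and D8 (-2.41, SE 0.12, adjusted p = 8.13e-12), and no call was made on the days between. Grm5, which couples to phospholipase C, was at 2.45 and 2.85 CPM in WT D8 and 1.29 and 1.19 in TKO D8 (-1.09, SE 0.28). Grm3 and Grm8 did not pass at D8 and stayed under 1 CPM in every library.

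**Figure D4:**
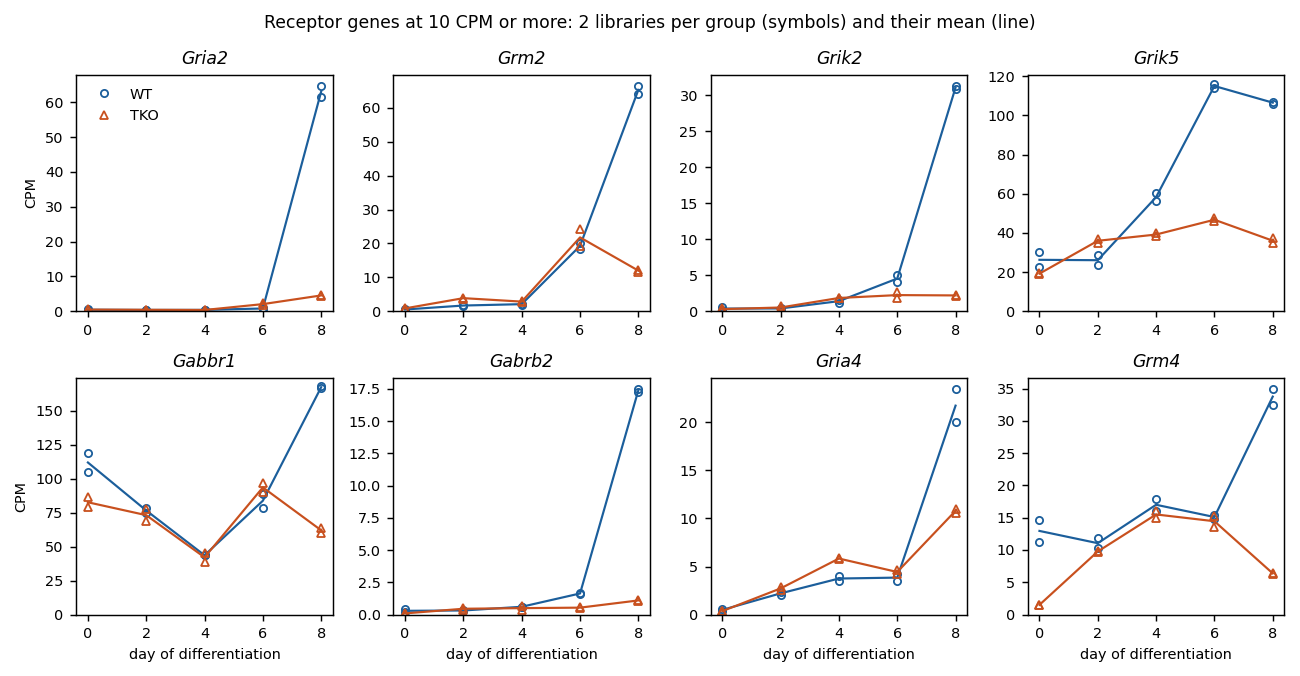
CPM (vertical axes, each from 0 to its own maximum) by day for 8 receptor genes that reached 10 CPM, with 2 libraries per group as symbols and their mean as a line. Gria2, Grm2, Grik2 and Gabrb2 climb in WT between D6 and D8 and stay low or fall in TKO, and Grm4 is low in TKO at D0.

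GABA-A receptors usually join alpha, beta and gamma subunits, and many of their genes lie in clusters. With gaps of at most 1000000 bases, 16 of the 47 members fell into 5 clusters. Gabrb2, a beta subunit gene, lies in the cluster on chromosome 11 from 42419757 to 42629028 on the plus strand. In WT, Gabrb2 was at 0.415 and 0.162 CPM at D0, 0.31 and 0.32 at D2, 0.592 and 0.613 at D4, 1.58 and 1.69 at D6, and 17.3 and 17.5 at D8. In TKO, Gabrb2 was at 0.104 and 0.0732 CPM at D0, 0.377 and 0.521 at D2, 0.629 and 0.363 at D4, 0.579 and 0.491 at D6, and 1.12 and 1.07 at D8. The genotypes separated at D6 (log2 fold change -1.59, SE 0.28) and further at D8 (-3.98, SE 0.23, adjusted p = 4.92e-11), and a call at D0 (-1.65, SE 0.55) was lost with DESeq2 and without WT D0 replicate 1 or either TKO D0 library. At D8 most Gabrb2 counts were assigned to the coding Gabrb2-201 (92% in WT and 72.8% in TKO). At D0 most were assigned to Gabrb2-204, a transcript annotated without a coding sequence (96.2% in WT and 100% in TKO). The D0 libraries held only 13 and 5 Gabrb2 counts in WT and 3 and 2 in TKO, so a change of transcript between these days is uncertain.

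Gabra5, the alpha subunit of extrasynaptic receptors in hippocampus, lies in the cluster on chromosome 7. In WT, Gabra5 was at 0.191 and 0.487 CPM at D0, 0.62 and 0.611 at D2, 2.75 and 3.52 at D4, 1.12 and 1.62 at D6, and 2.22 and 2.61 at D8. In TKO, Gabra5 was at 0.0348 and 0.293 CPM at D0, 1.92 and 1.8 at D2, 6.78 and 7.6 at D4, 1.85 and 2.35 at D6, and 4.16 and 3.71 at D8. Both genotypes had a peak at D4, where TKO was higher (log2 fold change 1.19, SE 0.26, adjusted p = 0.00233). TKO was also higher at D2 (1.59, SE 0.36) and at D8 (0.70, SE 0.28, adjusted p = 0.0318), the last of which was lost with DESeq2, with length-scaled TPM counts and without any of the 4 D8 libraries.

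Gabra4, an alpha subunit found in thalamus and forebrain, was the only member that was called in the same direction on all 5 days. It lies on chromosome 5 from 71569749 to 71658308, head to head with Gabrb1, with which it shares 46 exon bases. In WT, Gabra4 was at 0.191 and 0.292 CPM at D0, 0.968 and 0.495 at D2, 2.01 and 2.3 at D4, 0.182 and 0.265 at D6, and 0.313 and 0.21 at D8. In TKO, Gabra4 was at 0.94 and 0.879 CPM at D0, 6 and 5.45 at D2, 7.12 and 6.64 at D4, 1.3 and 0.947 at D6, and 3.67 and 3.83 at D8. Both TKO libraries were above both WT libraries on every day, with log2 fold changes of 1.90, 3.01, 1.67, 2.34 and 3.82 (SE at D8 0.30, adjusted p = 3.76e-09). In the same cluster Gabra2 was lower in TKO at D8 (-2.09, SE 0.51), and Gabrb1 (0.13, SE 0.60) and Gabrg1 (-0.78, SE 0.70) did not pass.

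Of the other members that were higher in TKO at D8, Grm6, the receptor of retinal ON bipolar cells, changed most. It was at 0.0853 and 0.24 CPM in WT D8 and 4.23 and 3.92 in TKO D8 (log2 fold change 4.63, SE 0.47, adjusted p = 1e-07). At D2 it was at 2.05 and 2.1 CPM in WT and 2.78 and 2.81 in TKO, and at D6 at 0 and 0.0993 in WT and 0.174 and 0.175 in TKO. Exons of Gm12660 on the opposite strand cover 11% of Grm6 exon bases. Gabra3, an alpha subunit of the fetal brain, likewise reached 1.74 and 1.89 CPM in WT and 1.92 and 1.8 in TKO at D2, and 0.853 and 1.08 in WT and 2.52 and 2.48 in TKO at D8 (1.37, SE 0.26). Gabrr1, a rho subunit known from retina, was at 0.114 and 0.0899 CPM in WT D8 and 0.979 and 0.674 in TKO D8 (2.96, SE 0.55), after 1.43 and 1.11 CPM in WT and 1.78 and 2.41 in TKO at D2. From D6 to D8, Grm6 and Gabrr1 rose in TKO (4.51 and 1.52 on the log2 scale) and did not pass in WT. The interaction did not pass for either gene, so a difference between the genotypes in this step was not shown for them. No D6 library held more than 11 counts of either. Gabra3 rose in both genotypes (3.18 in TKO and 1.67 in WT, interaction 1.51, adjusted p = 0.0156). Gabrp, the pi subunit of reproductive tissues, fell from D0 in both genotypes and was at 0.171 and 0.449 CPM in WT D8 and 1.05 and 0.796 in TKO D8 (1.57, SE 0.52), and Gabre, the epsilon subunit, was at 2.3 and 2.04 against 3.53 and 3.06 (0.60, SE 0.25, adjusted p = 0.0453). DESeq2 and RLE scaling both lost Gabre.

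**Figure D5:**
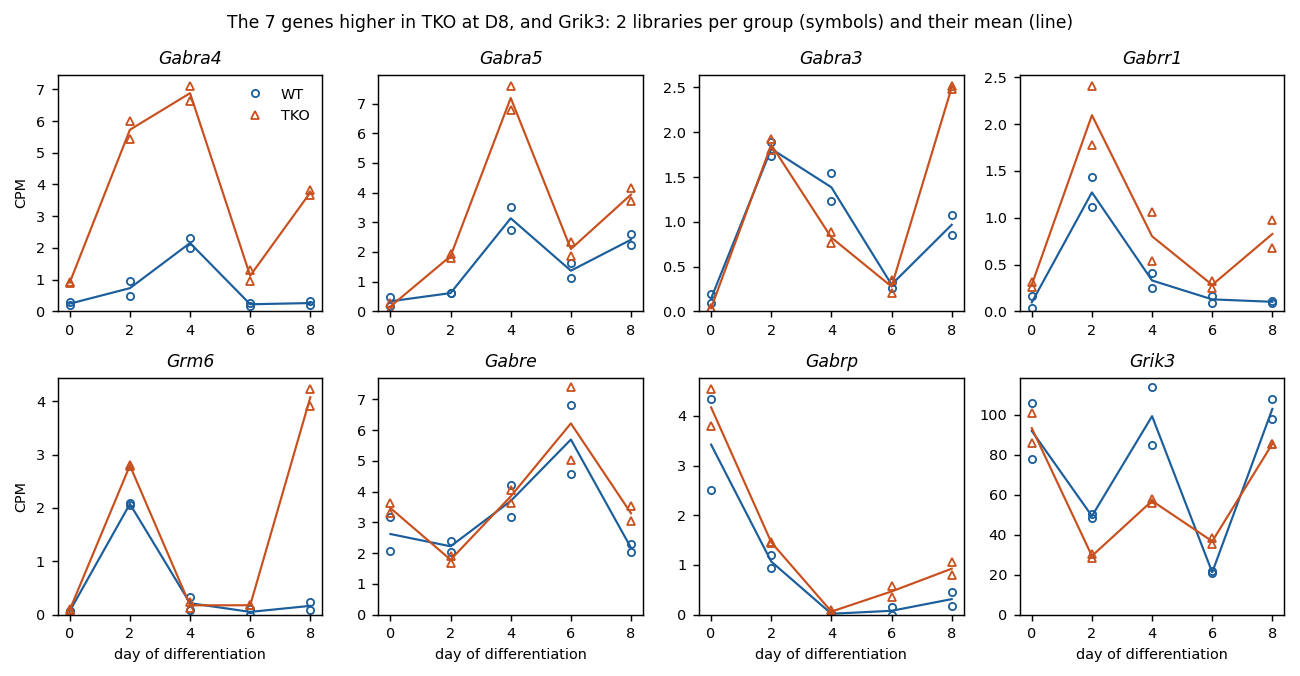
CPM (vertical axes, each from 0 to its own maximum) by day for the 7 genes that were higher in TKO at D8 and for Grik3, with 2 libraries per group as symbols and their mean as a line. In both genotypes Grm6, Gabra3 and Gabrr1 are higher at D2 than at D0 or D6, and all 3 are higher in TKO than in WT at D8.

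GABA-B receptors pair the GABA-binding subunit from Gabbr1 with the subunit from Gabbr2, which brings the pair to the cell surface. In WT, Gabbr1 was at 119 and 105 CPM at D0, 78.6 and 74.7 at D2, 43.8 and 43.5 at D4, 89 and 78.7 at D6, and 168 and 167 at D8. In TKO, Gabbr1 was at 78.9 and 86.5 CPM at D0, 68.6 and 77.8 at D2, 38.9 and 45.4 at D4, 90.1 and 97.2 at D6, and 60.3 and 63.8 at D8. It was the member with the highest level in WT D8, in CPM and per length in TPM, and TKO was lower at D0 (log2 fold change -0.43, SE 0.086) and D8 (-1.43, SE 0.087, adjusted p = 1.25e-10). The D0 call was lost with length-scaled TPM counts. Gabbr1-205, annotated as a target of nonsense-mediated decay, held 33.5% of its counts in WT D0, 9.47% in WT D8 and 16.9% in TKO D8. Gabbr2 was scarcer, at 8.53 and 8.78 CPM in WT D8 and 2.27 and 2.17 in TKO D8 (-1.96, SE 0.23), and was higher in TKO at D2 (2.00, SE 0.44).

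Between the genotypes, calls before D8 were fewer, among the members as over all genes (35.8% higher and 31.8% lower at D8). At D0, 5 members were higher in TKO and 5 lower (19.4% and 19.9% of all genes; median log2 fold change 0.10). With the 4 D0 libraries fitted alone these counts were 2 and 3, where Gabrb2 had too few counts to be tested, and length-scaled TPM counts left 3 lower. At D2, 9 were higher and 1, Grik3, lower (18.4% and 16.9% of all genes; median 0.43), and 2 were lower without TKO D2 replicate 1. At D4, 7 were higher and 4 lower (15.1% and 13.2%; median 0.30), with 4 higher when WT D4 replicate 1 was left out and 2 lower without WT D4 replicate 2 or TKO D4 replicate 1. At D6, 5 were higher and 6 lower (20.9% and 20.3%; median 0.20), with 3 lower without TKO D6 replicate 2 and with length-scaled TPM counts. Over all genes the medians lay between -0.0031 and 0 on these days.

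The genes that serve these receptors were read from 7 lists. The first held 17 genes for auxiliary subunits or other regulators of ionotropic glutamate receptors, such as Porcn and Abhd6. Of these 17, 13 were lower in TKO at D8 and none higher (median log2 fold change -0.97). The shares of all genes on that day, to be read beside this and the next 6 lists, were 31.8% lower and 35.8% higher. Cacng2, or stargazin, was at 14.5 ± 0.605 CPM (SD) in WT D8 and 1.58 ± 0.153 in TKO D8 (-3.20, SE 0.31), and Cacng4 (-1.56), Cnih2 (-1.48) and Shisa6 (-1.14) followed. Of 23 proteins of the excitatory postsynapse, 16 were lower and 3 higher (median -0.55), among them the adhesion protein gene Nlgn1 (-2.86) and the scaffold genes Dlg4 (-1.53) and Shank1 (-1.46), while the kinase subunit gene Camk2b was higher (1.30). Of 9 proteins of the inhibitory postsynapse and chloride balance, 7 were lower and 1 higher (median -0.99). Slc12a5, which encodes the chloride exporter KCC2, was at 52.1 ± 2.68 CPM in WT D8 and 7.13 ± 0.689 in TKO D8 (-2.87, SE 0.22), whereas Slc12a2, the chloride importer NKCC1, was at 58.5 ± 0.938 and 106 ± 1.23 (0.86, SE 0.074). Lhfpl4 (-1.81), Nlgn2 (-1.45) and Shisa7 (-1.21), which bind or position GABA-A receptors, were lower.

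The lists on the transmitters themselves had calls in both directions, with shares near those of all genes for transporters. Of 10 enzymes of glutamate and GABA metabolism, 5 were higher and 4 lower, beside 35.8% and 31.8% of all genes (median 0.08): Gls2, a glutaminase, was higher (2.91, SE 0.18), and Gad1 (-1.38), which makes GABA, and Abat (-1.11) and Aldh5a1 (-1.13), which degrade it, were lower. Of 15 transporters 13 were tested, with 4 higher and 5 lower (median 0.03). The glial glutamate transporter gene Slc1a2 (-2.28), the vesicular GABA transporter gene Slc32a1 (-2.14) and the vesicular glutamate transporter gene Slc17a6 (-1.54) were lower, and Slc1a4, a neutral amino acid transporter gene, was higher (1.02). Of 5 GABA-B auxiliary genes, 3 were lower and 1 higher, with Ajap1 at -2.10, Kctd12 at -0.66 and Kctd12b at 1.04. Of 5 glycine receptor genes 4 were tested and 3 were lower, including Glra1 (-2.66) and Glrb (-0.87).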

How the data were processed

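RNA was made into libraries with the TruSeq Stranded mRNA kit, per the labels' protocols. The submitters' processing notes name Trim Galore 0.6.2, kallisto, GRCm38 and mm10, and the authors deposited kallisto's estimated counts and TPM for 119414 transcripts per library. Whether the counting used strand is not given in the sources used here. Estimated counts of the 116728 transcripts found in GENCODE M21 were summed per gene and rounded, and the remainder, 0.943% to 1.1% of each library, was left out. TPM as deposited was summed per gene for levels and subunit shares.

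One edgeR 4.0.16 quasi-likelihood fit (R 4.3.3, TMM, filterByExpr, Benjamini-Hochberg over 18555 genes) held all 20 libraries, with 10 residual degrees of freedom for the group means and a common biological coefficient of variation of 0.069. It was also run on counts simulated with its own dispersions, in which only genes with higher counts were changed. That run does not cover members with low counts. The spread therefore comes from 2 replicates per group, pooled. Each SE was derived from the test, as the absolute log2 fold change divided by the square root of the F statistic. It is approximate, above all at low counts. Same-numbered replicates did not vary together, so the numbers were not used to pair samples. DESeq2 1.42.0, RLE scaling, no filter, a replicate block, length-scaled TPM counts, the compared groups alone and each library left out were the alternatives.

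The rule for the members uses symbols and no measured value, but this receptor family and the gene lists were taken up with earlier results of these data known. Values in every library are given for members with a mean of at least 10 CPM in a group, and for any other member that passed with at least 5 CPM and is among the 3 highest or 3 lowest of a day. Of the lists on synapses and transmitters, up to 4 genes are named, those with the largest change at D8 that passed and reached 5 CPM. A value with a group at 0 is given against a floor of 3 counts over that group, and such bounds cover counting error only. Some members count in the totals but are not reported by name here. Gene positions are those of GENCODE M21 on GRCm38.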

Additional observations from a re-analysis of the deposited data

Results flagged for a closer look

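The change over time differed between the genotypes, by the interaction test of the edgeR quasi-likelihood fit (Benjamini-Hochberg), for most members described library by library. Values are the log2 change in TKO minus that in WT. From D0 to D8 the difference was -3.89 for Gria2 (adjusted p = 2.98e-07), -3.47 for Grik2 (0.000125), -3.12 for Grm2 (1.9e-07) and -2.33 for Gabrb2 (0.0188). It was -1.43 for Grid1 (0.00213), -1.25 for Grin1 (0.0319), -1.11 for Grik5 (6.73e-06), -1 for Gabbr1 (2.08e-06) and -0.52 for Grin2d (0.0244). The value was positive for Gabra4 (1.92, adjusted p = 0.00593), Gabra5 (1.76, adjusted p = 0.0371) and Grm4 (0.70, adjusted p = 0.00759). Leaving out single libraries ended the call for Gabra4 (WT D0 replicate 2), Gabrb2 (WT D0 replicate 2 or either TKO D0 library), Gabra5 (4 of the 8 libraries in the contrast), Grin2d (4 of 8) and Grin1 (7 of 8), and length-scaled TPM counts ended it for Grm4 and for each of these but Grin2d.

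From D6 to D8 the difference was -5.11 for Gria2 (adjusted p = 3.02e-10), -2.79 for Grik2 (1.77e-06), -2.62 for Grm2 (9.86e-10), -2.39 for Gabrb2 (4.18e-05) and -2.35 for Grm4 (4.12e-09). It was -1.88 for Grin1 (0.00657), -1.59 for Gabbr1 (1.23e-08), -1.46 for Grid1 (0.000616), -1.21 for Gria4 (4.95e-05) and -1.06 for Grik3 (0.000149). Gabra4 had a positive value, 1.48 (adjusted p = 0.0288). Grm4 is the one of these genes whose sign differed between the spans: it rose from D0 to D6 in TKO, from 1.46 and 1.54 to 13.6 and 15.3 CPM, and then fell.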

How the results depend on the processing

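Of 76 calls for members described library by library, RLE scaling and the replicate block kept all 76, while length-scaled TPM counts lost 13, DESeq2 4, the compared groups alone 3 and the fit without the low-count filter 2. Leaving out single libraries ended a call 32 times, and 17 of the 76 were lost under at least 1 alternative. None of the 76 changed sign under any alternative. The block, a fit with the replicate number as a term, kept all 22 counts of members within 1.5 times, and at D8 kept the 33 calls and added Grik3. Without the low-count filter and with RLE scaling the 22 counts also stayed within 1.5 times. With the compared groups alone, the D0 counts were 2 higher and 3 lower in place of 5 and 5. With length-scaled TPM counts, 3 were lower at D0 and 3 at D6 in place of 5 and 6. With DESeq2, 1 member in place of 2 was more positive in TKO from D6 to D8. None of the D8 calls changed sign in these alternatives.

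Leaving out each of the 20 libraries gave these ranges for TKO against WT, higher and lower: 4 to 5 and 4 to 6 at D0, 7 to 10 and 1 to 2 at D2, 4 to 8 and 2 to 5 at D4, 5 to 7 and 3 to 7 at D6, and 4 to 7 and 24 to 28 at D8. Members that rose from D0 to D8 numbered 29 to 33 in WT and 20 to 27 in TKO, and those that fell 2 and 3 to 5. From D6 to D8, 26 to 30 rose and 1 fell in WT, and 14 to 17 rose and 4 to 6 fell in TKO. The interactions gave 3 to 6 more positive and 14 to 21 more negative from D0, and 1 to 2 and 19 to 25 from D6. A group reduced to 1 library took its spread from the remaining groups. Depth limits members under 1 CPM, where a library holds few counts and the 6 untested genes lie.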
